A study of Mus musculus with 6 samples.

Results

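Skeletal muscle genes were read in dorsal skin as a list of 41 genes given by symbol: sarcomere, calcium handling and metabolic genes of fast and slow fibres, 2 developmental myosins and 2 myogenic transcription factors. Each was taken from the row (transcript cluster) of the deposited table that carries its symbol alone, and for Trdn, the only one with several such rows, from the row with the highest mean. All 41 had a row, out of 35556 transcript clusters, of which 21789 carry exactly 1 gene symbol. The tested mice were Cbl-b-/-, lacking the E3 ubiquitin ligase Cbl-b in the whole body, and the controls were wild type (WT), with 3 arrays per genotype and 1 mouse per array. Both genotypes were on the BL6 background and matched by sex and age, with no age given, and both were shaved the day before a single UVB dose of 80 mJ/cm2 and killed 24 h later. Skin before irradiation was not analysed here, so every comparison is between 2 irradiated groups. Each value is a log2 expression level from an Affymetrix Mouse Gene 1.0 ST array, normalized by the authors with RMA, so a difference of 1 is a 2-fold difference.

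Mouse dorsal skin carries a thin sheet of striated muscle, the panniculus carnosus, beneath the dermis and its fat, and whole-skin RNA can include it. A muscle fibre contracts when calcium, released from the sarcoplasmic reticulum, binds the troponin complex on the actin filament and lets myosin heads engage. Fast and slow fibres use different genes for the same parts (myosin heavy and light chains, troponin subunits, calcium pumps), so a set of paired isoforms reports the fibre type. Slow fibre isoforms are in several cases also those of the heart.

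Cblb itself was lower in Cbl-b-/- skin, at 8.64 ± 0.049 against 9.76 ± 0.13 in WT skin (SD, n = 3 each), a difference of −1.12 in log2 (standard error 0.092, limma adjusted p = 0.0782). The row still read well above the background level of 5.34 (defined below) in Cbl-b-/- skin, and the reason was not tested. Array medians lay between 6.30 and 6.34. The keratinocyte markers (Krt5, Krt14, Krt1, Krt10 and Lor) had a median level of 11.64, 11.80 and 11.66 in Cbl-b-/- and 11.71, 11.88 and 11.28 in WT replicates 1 to 3, so the label of skin was borne out. WT replicate 3 stood apart in hair follicle genes, with a median over 9 markers of 9.88, against 5.75 to 7.71 in the Cbl-b-/- arrays and 5.47 to 5.66 in the other WT arrays. Precision is limited by the number of arrays, since 3 against 3 can reach no two-sided exact permutation p under 0.10.

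The 14 genes of the list counted as fast fibre lay well above background in all 6 skin samples, and the 5 counted as slow fibre near or below it. Olfactory and vomeronasal receptor genes, which skin does not use, served as a measure of background, and the 95th percentile of their 1210 rows was 5.34. On the mean over the 6 arrays, 23539 of all 35556 rows lay above it. Of the 41 muscle genes, 37 lay above it on that mean and also in the means of both genotypes. Those that did not were Myh3, Myl2 and Tnnt1, which stayed below it in both, and Tnnc1, whose Cbl-b-/- mean of 5.42 was above and whose WT mean of 5.19 was below. Levels of different genes depend on their probes, so they are set against this background and not against each other.

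2 arrays stood apart in skeletal muscle genes, 1 in each genotype. Cbl-b-/- replicate 2 was the lowest of its genotype in 31 of the 41 genes and WT replicate 3 the lowest of its genotype in 34, and both held in 30 genes (73.2%), against 4329 of all 35556 rows (12.2%). Among the 37 genes above background, Cbl-b-/- replicate 2 lay below the mean of the other Cbl-b-/- arrays by a median of 0.85 on the log2 scale (1.81-fold), and it was lower in 32 of 37. WT replicate 3 lay below the mean of the other WT arrays by a median of 0.65 (1.57-fold), also in 32 of 37. These gaps describe single arrays and carry no test. In whole-skin RNA, fewer muscle fibres in the piece taken and less of these transcripts per fibre cannot be told apart.

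**Figure D1:**
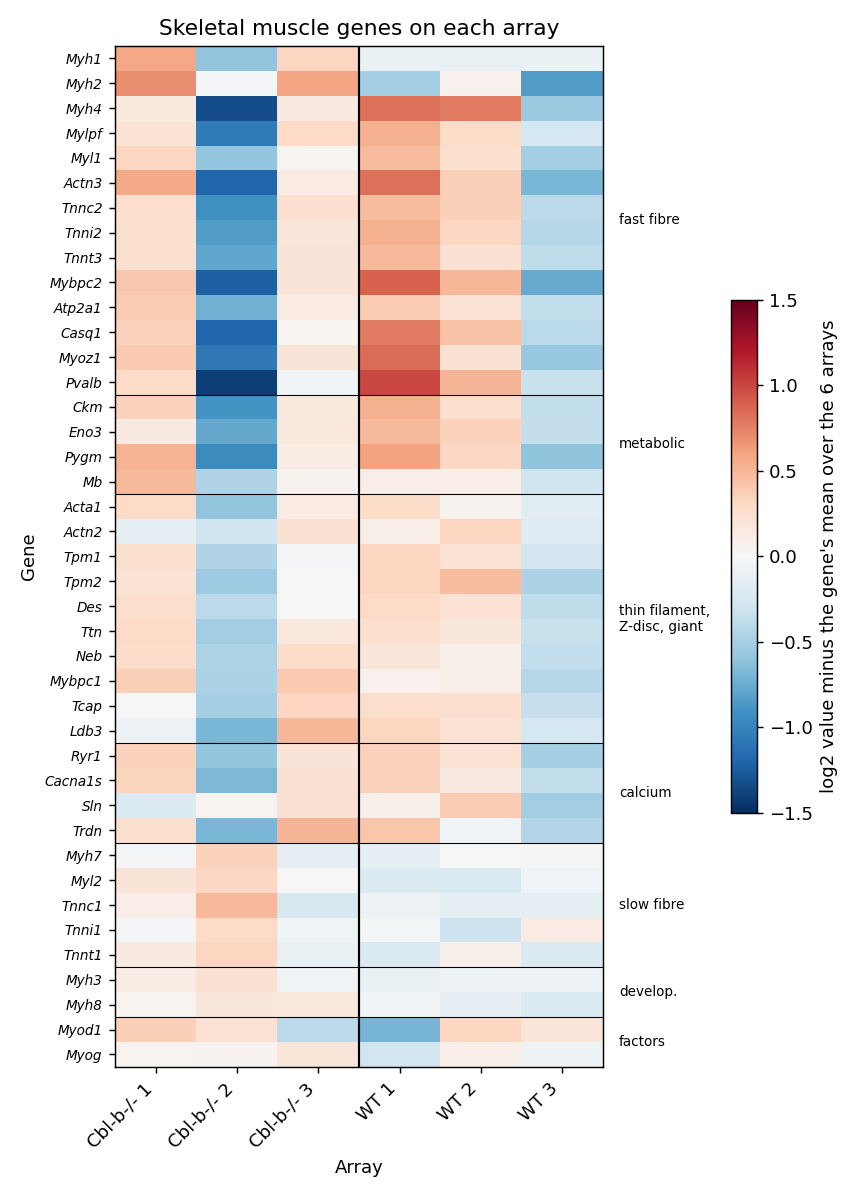
Each cell is the log2 value of 1 gene (rows, grouped by role) on 1 array (columns, Cbl-b-/- replicates left and WT replicates right), minus that gene's mean over the 6 arrays, from blue (low) to red (high). The columns of Cbl-b-/- replicate 2 and WT replicate 3 are blue through the fast fibre, metabolic and filament genes, and the slow fibre genes near the bottom do not share that pattern.

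The size of the gap differed between the roles of the genes. In the 14 fast fibre genes the median gap of Cbl-b-/- replicate 2 was 1.24 (2.37-fold), with the smallest at 0.67 for Myh2 and the largest at 1.54 for Actn3, an alpha-actinin of fast fibre Z-discs. In WT replicate 3 the median gap of the same genes was 0.86, from −0.0059 for Myh1, which had no gap, up to 1.45 for Mybpc2, the fast isoform of myosin-binding protein C. The 4 metabolic genes had median gaps of 1.03 in Cbl-b-/- replicate 2 and 0.76 in WT replicate 3. In the 10 thin filament, Z-disc and giant protein genes these gaps were 0.70 in Cbl-b-/- replicate 2 and 0.54 in WT replicate 3. The 5 slow fibre genes went the other way in Cbl-b-/- replicate 2, which was the highest of all 6 arrays in 5 of 5. WT replicate 3 was the highest of all arrays in 0 of 5 and the lowest of its genotype in 2 of 5. Of these genes, Myl2 and Tnnt1 were below background in both genotypes and Tnnc1 in WT, so the contrast rests partly on genes at the floor.

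The median level of adipocyte markers was lowest on the same 2 arrays as that of the muscle genes. Cbl-b-/- replicate 2 was the lowest of its genotype in 5 of 5 markers and WT replicate 3 in 3 of 5, and both held in 3 of 5. The median centred level of Adipoq, Plin1, Cidec, Fabp4 and Lep was 0.88, −1.02 and 0.63 in Cbl-b-/- replicates 1 to 3 and 0.50, −0.17 and −0.56 in WT replicates 1 to 3. For the fast fibre genes these levels were 0.33, −0.99 and 0.19 in Cbl-b-/- skin and 0.53, 0.29 and −0.42 in WT skin. Fibroblast markers had smaller gaps, with both arrays lowest of their genotype in 1 of 5 and medians of −0.072, −0.10 and 0.052 in Cbl-b-/- skin and −0.010, 0.37 and −0.018 in WT skin. Smooth muscle markers were low in Cbl-b-/- replicate 2 (−0.41) but not in WT replicate 3 (−0.0083). WT replicate 3 was the highest of all arrays in 9 of 9 hair follicle markers and the lowest in 5 of 5 keratinocyte markers. Cbl-b-/- replicate 2 was so in 0 of 9 and 0 of 5. The part of these other tissues in the muscle gene levels was not tested.

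**Figure D2:**
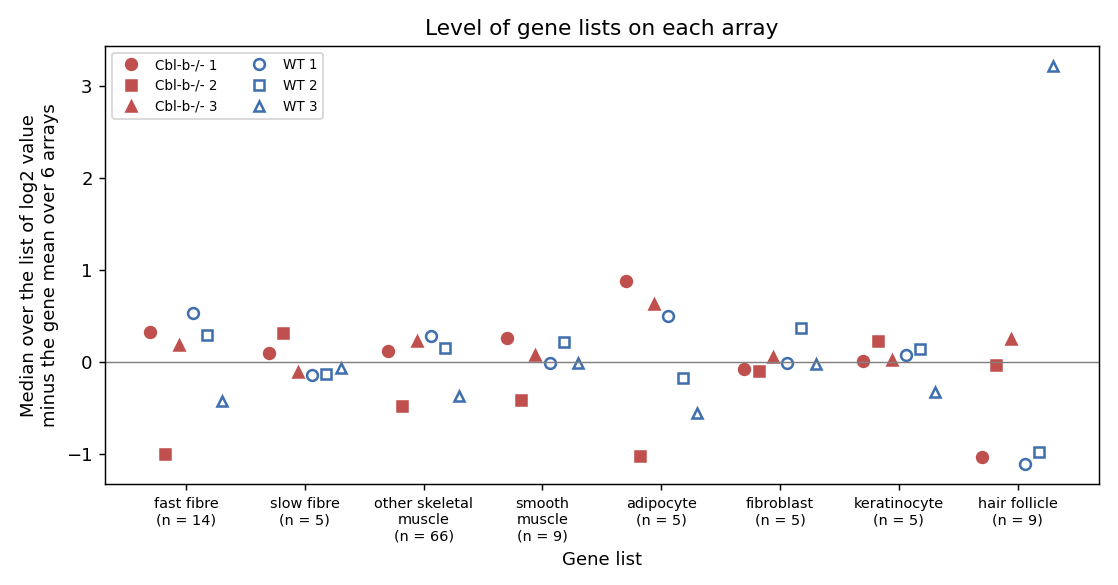
The vertical axis is the median over a gene list of the log2 value minus each gene's mean over the 6 arrays, with 1 point per array (filled, Cbl-b-/-; open, WT; shapes mark replicates 1 to 3) and the gene lists along the horizontal axis. The fast fibre, other skeletal muscle and adipocyte lists have their lowest points in Cbl-b-/- replicate 2 and WT replicate 3, and the hair follicle list has WT replicate 3 far above the others at 3.22.

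Of the myosin heavy chains, the motor proteins of the thick filament, the fast isoforms Myh1 (IIx), Myh2 (IIa) and Myh4 (IIb) lay well above background, and their genotype differences pointed in different directions. Myh2 stood at 9.75, 9.02 and 9.64 in Cbl-b-/- replicates 1 to 3, against 8.54, 9.11 and 8.21 in WT replicates 1 to 3. The genotypes overlapped, since Cbl-b-/- replicate 2 lay below WT replicate 2. Myh2 averaged 9.47 ± 0.39 in Cbl-b-/- and 8.62 ± 0.46 in WT skin (SD, n = 3 each), 1.80-fold higher, and the log2 fold change was 0.85 (standard error 0.28, unadjusted p = 0.0211 from limma, adjusted p = 0.743). It was the only one of the 41 genes to meet the study's thresholds, an unadjusted p under 0.05 and at least 1.5-fold. The call rested on the test and on single arrays. It was lost with the methods' per-row test and without Cbl-b-/- replicate 1, Cbl-b-/- replicate 3, WT replicate 1 or WT replicate 3 (log2 fold change 0.64 to 0.81).

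Myh4, the isoform of the fastest mouse fibres, had values of 10.45, 8.98 and 10.44 in Cbl-b-/- skin and 11.14, 11.07 and 9.75 in WT skin. The low array of each genotype was the one that stood apart in muscle genes. Its log2 fold change was −0.69 (standard error 0.53, limma adjusted p = 0.813) and did not meet the thresholds. Without Cbl-b-/- replicate 2 it was −0.20 and without WT replicate 3 it was −1.15. Myh1 stood at 10.84, 9.66 and 10.58 in Cbl-b-/- skin, against 10.16, 10.14 and 10.16 in WT skin. The WT arrays were nearly level (SD 0.0086), WT replicate 3 included, and the Cbl-b-/- arrays lay on both sides of them. The log2 fold change of Myh1 was 0.21 (standard error 0.29).

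The remaining heavy chains were close to background. Myh7, the slow and cardiac isoform, stood at 5.60, 5.96 and 5.47 in Cbl-b-/- and 5.48, 5.61 and 5.60 in WT skin, for a log2 fold change of 0.12 (standard error 0.14). Myh8, the perinatal isoform, had values of 5.87, 6.0 and 5.99 in Cbl-b-/- skin and 5.79, 5.71 and 5.62 in WT skin. Every Cbl-b-/- array lay above every WT array, and the log2 fold change was 0.24 (standard error 0.084, unadjusted p = 0.0245 from limma, adjusted p = 0.743), under the fold threshold. Myh3, the embryonic isoform, stood at 4.62, 4.75 and 4.45 in Cbl-b-/- and 4.40, 4.45 and 4.44 in WT skin, all below the background level, and its log2 fold change was 0.18 (standard error 0.096).

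**Figure D3:**
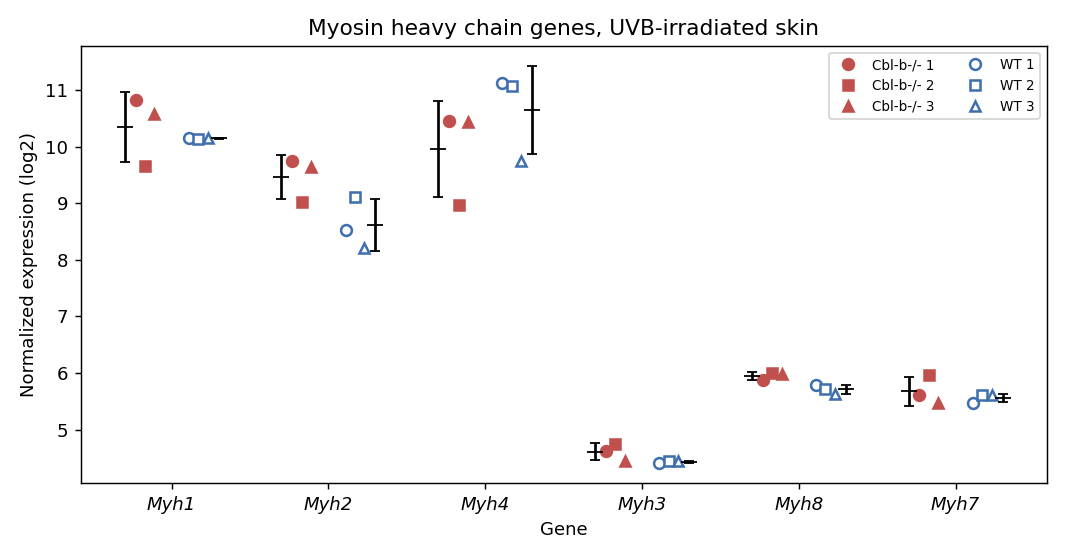
Normalized expression (log2, vertical axis) of 6 myosin heavy chain genes (horizontal axis), with 1 point per array (filled, Cbl-b-/-; open, WT; shapes mark replicates 1 to 3) and the mean with SD of 3 arrays as bars beside the points. 2 of the 3 Cbl-b-/- points of Myh2 lie above all its WT points, and Myh4 has its low points in Cbl-b-/- replicate 2 and WT replicate 3.

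Myh3, Myh2, Myh1, Myh4 and Myh8 are neighbours on chromosome 11, where the 5 genes span 230.4 kb from 67078273 to 67308634 (GRCm38.p6, RefSeq). Their coding sequences are closely related, and whether the array's probes tell each from the others was not checked. The promoters of the adult fast chains are shown because these neighbours fell on different sides between the genotypes, and that of Acta1, the alpha-actin of the skeletal muscle thin filament, because it holds a textbook pair of muscle motifs. Each runs 5′ to 3′ on the gene's own strand from 250 bases before to 50 bases after the RefSeq start. Capitals mark the E-box CAGCTG (bound by MyoD-type factors), the MEF2 motif and the CArG box (bound by serum response factor), searched on both strands. The marked motifs do not overlap one another.
Myh2 chr11:67170777-67171076 (+): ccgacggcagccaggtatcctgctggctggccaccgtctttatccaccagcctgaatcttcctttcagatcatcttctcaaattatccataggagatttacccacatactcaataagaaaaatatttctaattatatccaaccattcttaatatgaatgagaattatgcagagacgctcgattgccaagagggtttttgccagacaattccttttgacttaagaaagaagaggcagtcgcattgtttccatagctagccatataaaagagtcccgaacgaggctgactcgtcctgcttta
Myh1 chr11:67199852-67200151 (+): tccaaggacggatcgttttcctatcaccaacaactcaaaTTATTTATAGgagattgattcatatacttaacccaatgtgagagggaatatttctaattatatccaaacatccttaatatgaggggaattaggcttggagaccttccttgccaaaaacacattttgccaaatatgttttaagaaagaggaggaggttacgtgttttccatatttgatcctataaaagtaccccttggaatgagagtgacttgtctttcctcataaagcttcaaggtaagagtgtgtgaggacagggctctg
Myh4 chr11:67237562-67237861 (+): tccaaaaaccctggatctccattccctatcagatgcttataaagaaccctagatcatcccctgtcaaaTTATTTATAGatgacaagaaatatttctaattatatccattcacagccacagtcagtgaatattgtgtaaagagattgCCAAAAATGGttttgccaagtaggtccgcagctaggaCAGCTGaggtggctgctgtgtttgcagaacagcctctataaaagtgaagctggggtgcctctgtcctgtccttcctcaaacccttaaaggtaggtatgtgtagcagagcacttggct
Acta1 chr8:123894726-123895025 (−): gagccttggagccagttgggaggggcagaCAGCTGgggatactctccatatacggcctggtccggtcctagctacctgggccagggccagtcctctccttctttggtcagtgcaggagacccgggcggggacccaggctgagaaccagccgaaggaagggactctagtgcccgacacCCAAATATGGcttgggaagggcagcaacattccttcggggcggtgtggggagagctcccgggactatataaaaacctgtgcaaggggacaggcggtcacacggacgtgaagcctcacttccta
In these windows Myh4 had all 3 motifs, with the MEF2 motif starting at position −182, the CArG box at −104 and the E-box at −67 from the start site. Myh1 had the same MEF2 letters at −211. The Myh2 window held none of the 3. Acta1 had an E-box at −221 and a CArG box at −73.

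Of the 41 genes, 32 matched a RefSeq promoter window by symbol. An E-box CAGCTG lay in 16 of the 32, against 18.3% of all 27025 genes with a window. A MEF2 motif lay in 5 of 32 (15.6%), in Myh1, Myh4, Myh8, Pvalb and Ttn, against 3.7% of all genes. A CArG box lay in 3 of 32 (9.38%), in Acta1, Ldb3 and Myh4, against 1.81%. A match is a run of letters and not a shown binding site, and the E-box genes include slow fibre (Myl2, Tnni1) as well as fast fibre genes (Mylpf, Myl1, Casq1, Atp2a1).

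The fast troponin subunits, which hold the thin filament off until calcium binds, followed the 2 low arrays and not the genotype. Tnni2, the fast inhibitory subunit, stood at 10.29, 9.21 and 10.24 in Cbl-b-/- and 10.59, 10.36 and 9.63 in WT skin, which gave a log2 fold change of −0.28 (standard error 0.36). Tnnt3, the fast tropomyosin-binding subunit, stood at 10.79, 9.77 and 10.74 in Cbl-b-/- and 11.03, 10.77 and 10.16 in WT skin, at −0.22 (standard error 0.34). Tnnc2, the fast calcium-binding subunit, had a log2 fold change of −0.28. In each, the lowest of all 6 values was Cbl-b-/- replicate 2 and the next lowest WT replicate 3, and the genotypes overlapped.

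The remaining fast fibre genes did not meet the thresholds either. The light chains Mylpf and Myl1 had log2 fold changes of −0.36 and −0.14, Actn3 of −0.33, Mybpc2 of −0.42, and Myoz1, a Z-disc protein that binds calcineurin, of −0.33. Pvalb, the calcium buffer parvalbumin of the fastest fibres, stood at 10.13, 8.42 and 9.79 in Cbl-b-/- skin, against 10.84, 10.34 and 9.50 in WT skin. Cbl-b-/- replicates 1 and 3 lay between the WT arrays and replicate 2 below them all. Its log2 fold change of −0.78 (standard error 0.51, unadjusted p = 0.177 from limma, adjusted p = 0.794) was the lowest of the 41, with −1.14 and −0.27 as the ends of its range when each array was left out. Over the 14 fast fibre genes, 2 had a log2 fold change above 0 (Myh1 and Myh2) and 12 below, with a median of −0.31, against 0.020 over all rows. Without Cbl-b-/- replicate 2 that median was 0.11, and without WT replicate 3 it was −0.57.

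The 5 genes counted as slow fibre lay near or below background, and all had log2 fold changes above 0 that did not meet the thresholds. Tnni1, the slow inhibitory troponin, stood at 5.69, 6.01 and 5.65 in Cbl-b-/- and 5.69, 5.41 and 5.84 in WT skin, which gave a log2 fold change of 0.14 (standard error 0.15). Tnnt1, the slow tropomyosin-binding troponin, stood at 5.04, 5.22 and 4.80 in Cbl-b-/- and 4.69, 4.98 and 4.69 in WT skin, at 0.23 (standard error 0.14). In both, the highest array was Cbl-b-/- replicate 2 and the genotypes overlapped, and all 6 values of Tnnt1 were below the background level. Myl2, the regulatory light chain of slow fibres and heart ventricle, had 5.07, 5.19 and 4.86 in Cbl-b-/- skin and 4.66, 4.64 and 4.81 in WT skin, with no overlap and a log2 fold change of 0.33 (standard error 0.11, unadjusted p = 0.0199 from limma, adjusted p = 0.743). All 6 of its values were below the background level. Tnnc1, the calcium-binding troponin of slow and cardiac muscle, had a log2 fold change of 0.23. The 5 slow fibre genes had a median log2 fold change of 0.23, which was 0.046 without Cbl-b-/- replicate 2.

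The metabolic genes supply and buffer ATP in the fibre. Ckm, the muscle creatine kinase, stood at 11.68, 10.44 and 11.49 in Cbl-b-/- and 11.87, 11.58 and 10.97 in WT skin, for a log2 fold change of −0.27 (standard error 0.37). Mb, the oxygen-binding myoglobin, stood at 9.92, 8.98 and 9.48 in Cbl-b-/- and 9.53, 9.53 and 9.14 in WT skin, at 0.061 (standard error 0.25). The lowest array of each genotype was again the one that stood apart. The log2 fold change was −0.32 for Eno3, the muscle enolase, and −0.22 for Pygm, the muscle glycogen phosphorylase, and 0 of the 4 met the thresholds.

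The 10 thin filament, Z-disc and giant protein genes had log2 fold changes from −0.21 to 0.18, and 0 met the thresholds. Acta1 stood at 12.40, 11.51 and 12.23 in Cbl-b-/- and 12.39, 12.16 and 11.94 in WT skin, which gave a log2 fold change of −0.11 (standard error 0.25). Des, the intermediate filament desmin that smooth muscle also expresses, stood at 10.65, 9.996 and 10.38 in Cbl-b-/- and 10.69, 10.61 and 10.004 in WT skin, at −0.092 (standard error 0.24). In both genes the spread within a genotype was wider than the difference between them. Log2 fold changes were −0.16 and −0.21 for the tropomyosins Tpm1 and Tpm2, which smooth muscle also expresses, and −0.15 for the alpha-actinin Actn2. They were −0.056 for Ttn (titin, the spring of the sarcomere) and 0.065 for Neb (nebulin, along the thin filament). Mybpc1, the slow isoform of myosin-binding protein C and so of the thick filament, was counted in this group and not among the 5 slow fibre genes. Unlike those, it lay well above background, at means of 9.22 in Cbl-b-/- and 9.03 in WT skin, with a log2 fold change of 0.18. Log2 fold changes of the Z-disc proteins Tcap and Ldb3 were −0.12 and −0.18. All 10 had their lowest Cbl-b-/- value in replicate 2 and their lowest WT value in replicate 3.

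In the calcium system, Atp2a1, the SERCA1 pump that returns calcium to the reticulum of fast fibres, stood at 12.12, 11.03 and 11.86 in Cbl-b-/- and 12.13, 11.95 and 11.38 in WT skin. The log2 fold change came to −0.15 (standard error 0.32). Ryr1, the calcium release channel, stood at 9.62, 8.70 and 9.48 in Cbl-b-/- and 9.63, 9.49 and 8.78 in WT skin, at −0.033 (standard error 0.31). Cacna1s, its voltage sensor, had a log2 fold change of −0.069, and Casq1, the calcium-storing calsequestrin of fast fibres, of −0.54. Trdn, the triadin that links the release channel to calsequestrin, had 19 rows with log2 fold changes from −0.57 to 0.043, and 0 met the thresholds. The row counted here had the highest of these log2 fold changes, and their median was −0.090. Row means ran from 2.53, below background, to 10.63. In all 19 the low arrays were Cbl-b-/- replicate 2 and WT replicate 3. Sln, sarcolipin, an inhibitor of the calcium pump, departed from this, with 5.85, 6.10 and 6.29 in Cbl-b-/- and 6.13, 6.44 and 5.53 in WT skin, and its log2 fold change of 0.044 (standard error 0.24) turned to −0.20 with array weights.

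The 2 myogenic transcription factors of the list did not follow the sarcomere genes. Myod1, which sets and maintains the muscle programme, stood at 7.42, 7.28 and 6.67 in Cbl-b-/- skin, against 6.37, 7.38 and 7.24 in WT skin. Its lowest arrays were WT replicate 1 and Cbl-b-/- replicate 3, and its log2 fold change was 0.13 (standard error 0.31). Myog, myogenin, which drives differentiation, stood at 5.49, 5.51 and 5.63 in Cbl-b-/- and 5.16, 5.52 and 5.37 in WT skin. Both genotype means lay just above the background level and WT replicate 1 below it, and the log2 fold change was 0.19 (standard error 0.11). Among the other skeletal muscle genes, the transcription factor Mef2c was lowest of its genotype in Cbl-b-/- replicate 2 and WT replicate 3. Myf6, another, was lowest in WT replicate 3 but not in Cbl-b-/- replicate 2. Satellite cell markers (Pax7, Myf5, Cdh15, Chodl and Calcr) had median centred levels of 0.098, 0.0065 and 0.029 in Cbl-b-/- and −0.046, −0.037 and 0.039 in WT skin. Of these markers 0 of 5 met the thresholds, against 1.22% of all rows. Myf5, Chodl and Calcr were not shown above background, so these medians rest largely on genes near the floor.

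Among the 41, Myh2 alone passed the study's thresholds as higher, 0 passed as lower and 40 passed in neither direction. The background for these calls was 1.22% of all rows in either direction, 0.276% as higher and 0.945% as lower. At a limma adjusted p under 0.05 there were 0 of the 41, with 0.00281% of all rows called. At an unadjusted p under 0.05 there were 3 (Myh2, Myh8 and Myl2), with a background of 6.55%. Myh3, Myh8 and Myl2 had every Cbl-b-/- array above every WT array, 3 of 41, against 8.66% of all rows. None of the 41 had every Cbl-b-/- array below every WT array, against 4.89% of all rows. These counts of the muscle genes therefore lie near the background. Log2 fold changes lay between −0.78 and 0.85, 16 above 0 and 25 below, and their median was −0.11. The median was 0.11 without Cbl-b-/- replicate 2, 0.035 without WT replicate 1 and −0.29 without WT replicate 3.

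**Figure D4:**
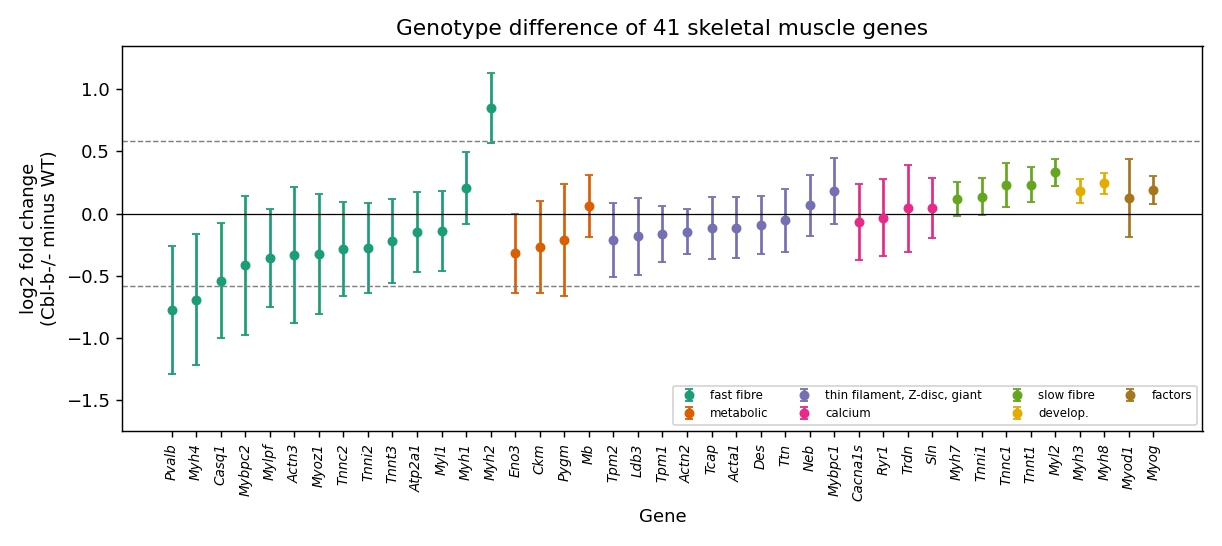
Points are limma log2 fold changes (Cbl-b-/- minus WT, 3 arrays each, vertical axis) with standard errors for 41 genes (horizontal axis, coloured by role), and dashed lines mark 1.5-fold on either side of 0. Myh2 lies above the upper line at 0.85, Myh4 and Pvalb lie below the lower line with wide errors, and the slow fibre genes lie between 0.12 and 0.33.

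The balance of fast heavy chains was then read against the muscle level of each array, in 2 ways chosen after the values were seen. The first took a gene's centred log2 value minus the median centred level of 66 other skeletal muscle genes on the same array. On that scale Myh2 stood at 0.58, 0.46 and 0.36 in Cbl-b-/- skin, against −0.79, −0.089 and −0.47 in WT skin, with no overlap. Myh4 stood at 0.023, −0.85 and −0.096 in Cbl-b-/- and 0.55, 0.61 and −0.19 in WT skin, and Pvalb at 0.17, −0.93 and −0.28 in Cbl-b-/- and 0.71, 0.35 and 0.034 in WT skin, both with overlap. Myh1 overlapped as well. Of the 41 genes, 5 had no overlap on this scale, with Myh2, Neb and Mybpc1 above WT and Mylpf and Eno3 below. Over all rows 0.998% had every Cbl-b-/- array above and 0.571% below, but the subtraction adds the spread of the muscle level to genes that do not follow it, so those shares are no like background. Subtracting Myh4 from Myh2 within each array, each centred on its own mean, gave 0.55, 1.30 and 0.46 in Cbl-b-/- and −1.34, −0.70 and −0.28 in WT skin. The means were 0.77 ± 0.46 in Cbl-b-/- and −0.77 ± 0.53 in WT skin (SD, n = 3 each), a difference of 1.54, and it carries no test because the pair was picked for its values. The same subtraction of Myh1 from Myh2 gave 0.12, 0.57 and 0.28 in Cbl-b-/- and −0.41, 0.18 and −0.74 in WT skin, with overlap.

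**Figure D5:**
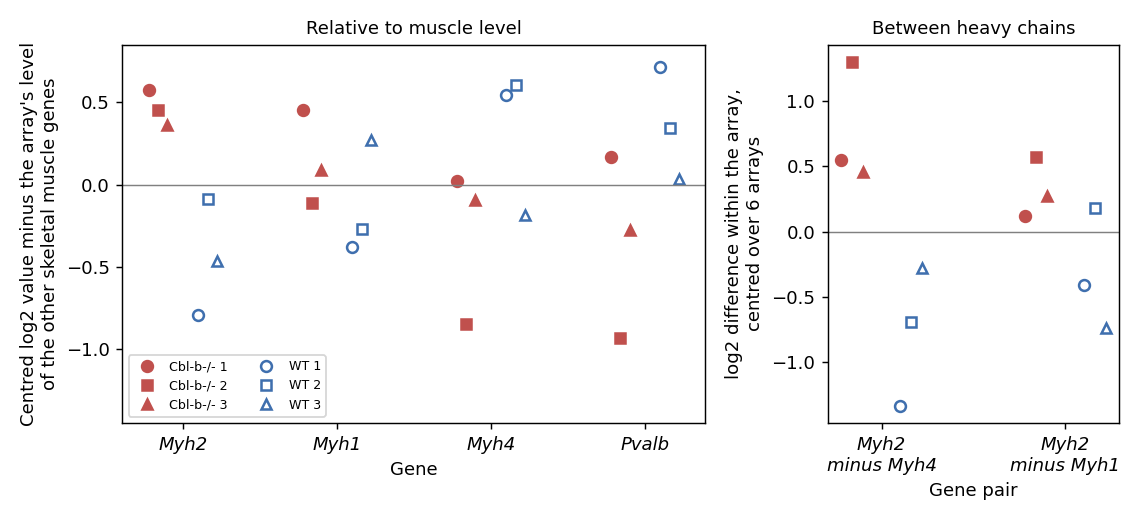
Left, centred log2 value of 4 fast fibre genes minus the median centred level of 66 other skeletal muscle genes on the same array; right, difference between 2 heavy chain genes within an array, centred over the 6 arrays (both in log2 units; filled, Cbl-b-/-; open, WT; shapes mark replicates 1 to 3). Every Cbl-b-/- point of Myh2, and of Myh2 minus Myh4, lies above every WT point, and the other genes and the other pair overlap.

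The second way added that muscle level to the limma model as a covariate. With it, 2 of the 41 genes met the study's thresholds, against 1.5% of all rows. Myh2 was higher, and the log2 fold change was 0.91 (standard error 0.19, unadjusted p = 0.00385, adjusted p = 0.562), and Pvalb was lower, at −0.64 (standard error 0.18, unadjusted p = 0.0119, adjusted p = 0.601). Myh4 stood at −0.55 (standard error 0.11, unadjusted p = 0.00293, adjusted p = 0.562) and stayed under 1.5-fold. At an unadjusted p under 0.05 in this limma model there were 7 of the 41, and 2644 of all 35556 rows. No gene of the 41 passed an adjusted p under 0.05 in this model either. The covariate takes up spread in genes that follow the muscle level, so the shares of all rows are no like background here. The model was chosen after the values were seen, so its p-values describe the fit and carry no test of these genes.

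The 66 measured of 70 other skeletal muscle genes (sarcomere, neuromuscular junction, mitochondrial and regulatory genes outside the 41) included the same low arrays. Cbl-b-/- replicate 2 and WT replicate 3 were both lowest of their genotype in 51 of 66 (77.3%). Log2 fold changes lay between −0.61 and 0.72 (median −0.052), 25 above 0 and 41 below, and 0 met the thresholds. At an unadjusted p under 0.05 in limma there were 2, against 6.55% of all rows, Chrnd (0.19), a subunit of the muscle acetylcholine receptor, and Casq2 (0.26), the calsequestrin of heart and slow fibres. Every Cbl-b-/- array lay above every WT array in 5 of 66, against 8.66% of all rows, which were these 2 with Chrna1 (0.15), another receptor subunit, Myl3 (0.22), a light chain of slow and ventricular muscle, and Myoz2 (0.41), a Z-disc protein of slow and cardiac muscle. Actc1, cardiac alpha-actin, was the 1 gene with every Cbl-b-/- array below every WT array (−0.50), against 4.89% of all rows. None of these shares exceeded that of all rows, and these 6 were named after their values were seen.

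Other kinds of muscle showed no called difference. In the 9 smooth muscle genes the median log2 fold change was −0.20, and in the 5 cardiac genes it was 0.13. In each list 0 met the study's thresholds, against 1.22% of all rows. At an unadjusted p under 0.05 in limma there were 0 of 9 smooth muscle genes and 1 of 5 cardiac genes, against 6.55% of all rows. The cardiac gene was Tnni3 (cardiac troponin I, 0.21, unadjusted p = 0.0289 from limma), named after its value was seen.

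The genes outside the 41 whose profile over the 6 arrays lay closest to that of the muscle genes were Synm, Hhatl, Car3, Slc25a4, Acacb, Cadm3, Klhl41, Ak1, Avpr1a and Ndrg2. Likeness was the root mean square distance, over 6 arrays, between a gene's centred log2 values and the median centred profile of the 41, taken over 21730 rows with 1 symbol. For these 10 it ran from 0.054 (Synm) to 0.078 (Ndrg2), against a median of 0.37 over all those rows. Klhl41 is also in the list of other skeletal muscle genes, which holds 7 of the closest 50.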

How the data were processed

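Dorsal skin RNA of 6 mice was hybridized to 6 arrays (Affymetrix Mouse Gene 1.0 ST), 1 per mouse. The deposited values are log2 expression levels that the authors made by RMA (background correction, quantile normalization and median polish) in Partek, given as version 6.5 in the submitters' processing notes, which also name Affymetrix Expression Console. Quantile normalization forces a common distribution on all arrays. Genotype and replicate number came from the labels, and 0 columns of other samples were present. Gene names came from the platform annotation. The genotypes were compared on the values as deposited (Cbl-b-/- minus WT) in limma 3.58.1 (R 4.3.3), over all 35556 rows, with Benjamini-Hochberg adjustment, and the study's thresholds (unadjusted p under 0.05, at least 1.5-fold) were applied. The study's methods call the replicates biological. Values on every array are given for the heavy chains, 14 further genes set by name and any gene meeting the thresholds. Those of Myl2, outside this rule, were added after its values were seen. The genes, lists and tests were chosen with earlier results of these data known. Alternatives were the methods' per-row test, a replicate block, cyclic loess, a level filter, a trended robust variance, array weights, row averaging and leaving out each array. The muscle level covariate was added after seeing the data. The fit was tested on simulated data. Motifs were searched in RefSeq promoter windows (GRCm38.p6).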

Additional observations from a re-analysis of the deposited data

How the results depend on the processing

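Over all rows, 434 met the study's thresholds in limma, 267 with the methods' per-row test, 176 among rows above the median level and 428 to 790 when each array was left out. Of the 41 muscle genes, 1 did (Myh2), and 0 with the methods' test or the replicate block, 2 with the muscle level as a covariate, and 0 to 1 when each array was left out. Of the other skeletal muscle genes 0 did, but 1 with array weights (Asb5), 1 with the covariate (Fabp3) and 0 to 2 when each array was left out (Fabp3 without Cbl-b-/- replicate 2, Actc1 without WT replicate 2, Trim63 and Asb5 without WT replicate 3). The median log2 fold change of the slow fibre genes ran from 0.046 to 0.34 when each array was left out. The sign turned with the covariate for Ttn (0.0086), Ryr1 (0.049) and Cacna1s (0.012), and for Sln with cyclic loess (−7.0e-05) and array weights (−0.20). Without single arrays it turned in 27 of the 41 genes, none of which met the thresholds, with ranges of −0.034 to 0.55 for Myh1, −0.028 to 0.22 for Myh7, −0.60 to 0.076 for Mylpf, −0.43 to 0.12 for Myl1, −0.29 to 0.16 for Acta1, −0.76 to 0.18 for Actn3, −0.55 to 0.11 for Tnnc2, −0.56 to 0.070 for Tnni2, −0.47 to 0.11 for Tnnt3. They were −0.35 to 0.023 for Tpm1, −0.50 to 0.0047 for Tpm2, −0.52 to 0.11 for Ckm, −0.57 to 0.21 for Pygm, −0.17 to 0.30 for Mb, −0.31 to 0.082 for Des, −0.24 to 0.19 for Ttn, −0.10 to 0.31 for Neb, −0.90 to 0.090 for Mybpc2. The others were −0.38 to 0.17 for Atp2a1, −0.29 to 0.25 for Ryr1, −0.27 to 0.25 for Cacna1s, −0.69 to 0.13 for Myoz1, −0.32 to 0.10 for Tcap, −0.48 to 0.12 for Ldb3, −0.19 to 0.35 for Myod1, −0.21 to 0.25 for Sln, −0.20 to 0.40 for Trdn. In the remaining 14 genes, Myh2 included, it held in these alternatives. No gene of the 41 passed an adjusted p under 0.05 in any alternative run. The replicate numbers were not taken to pair the samples, as the labels name no pairs. Same-numbered arrays correlated at 0.23, 0.092 and 0.25 in their deviations from the group means. Of the arrays, 5 of 6 correlated best with their own number, and whether the numbers mark pairs is not known. With the replicate block 453 rows met the thresholds. The cause of these shifts was not tested. No depth applies to arrays, and the 4 genes not shown above background in both genotypes can understate a difference.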
